A study of Mus musculus with 4 samples.

Results

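The GIMAP genes (GTPases of the immunity-associated protein family) were examined in nascent RNA of thymocytes with and without Tox4. The members were the 8 rows of the deposited table named Gimap1, Gimap3, Gimap4, Gimap5, Gimap6, Gimap7, Gimap8 and Gimap9, out of 24984 genes, taken by name. In cKO, transcriptional output of Gimap3, Gimap4 and Gimap6 was called lower, with log2 fold changes of -0.73, -0.51 and -0.29. Gimap8, at -0.45, missed the threshold with a DESeq2 adjusted p-value of 0.0501. Gimap1, which lies in the same cluster, was at 18.0 ± 2.0 CPM in WT and 19.3 ± 0.169 CPM in cKO (SD, n = 2). Without WT replicate 1 the estimates of the called members were -0.55, -0.42 and -0.25, and that of Gimap1 was -0.02. The difference between Gimap1 and the called members was not tested. CPM is the count of a gene scaled to a library total common to all samples. The decreases were called with the Wald test of DESeq2, the package that the study's methods name, and with 2 other tools, edgeR and limma voom, no member was called.

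TTchem-seq captures the RNA that cells synthesise while 4-thiouridine is briefly supplied, and reads over exons and introns of a gene follow its transcriptional output and not the amount of stable mRNA. The cells were double positive (DP) thymocytes, which carry both CD4 and CD8, rested in culture medium before the pulse. The methods describe selection of DP cells from thymus with CD4 beads, which also bind CD4 single positive cells, and do not say separately how the cells of these libraries were obtained. There were 2 libraries from wild-type (WT) mice, labelled Tox4;F/F, and 2 from conditional knockout (cKO) mice, labelled Tox4;F/F;Lck+. All 4 libraries thus carried the floxed Tox4 alleles, and Cre was present in cKO only. The study states that Cre is driven by the proximal Lck promoter and acts from the DN3 stage, before cells become DP. Its methods give the mice as sex-matched littermates on a C57BL/6 background, 6 to 8 weeks old. No group was a Cre control without floxed alleles, so an effect of Cre itself cannot be told apart from the loss of Tox4. The labels do not say whether a library came from 1 mouse or a pool, and the p-values measure only the spread between these samples.

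GIMAP proteins are GTP-binding proteins of lymphocytes. Most sit on internal membranes such as those of lysosomes, endoplasmic reticulum, Golgi, mitochondria or lipid droplets, several act in lymphocyte survival, and mice or rats that lack GIMAP5 lose peripheral T cells. The genes lie side by side in vertebrate genomes, and their expression is known to rise as thymocytes mature past the DP stage.

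The libraries held between 38429786 and 48690591 fragments. Tox4 itself, counted over its whole length and not over the deleted exons, was at 74.0 and 70.3 CPM in WT and at 59.3 and 57.2 CPM in cKO, for which DESeq2 estimated a log2 fold change of -0.31 (SE 0.0998, adjusted p = 0.0453). All 10 DP markers looked for were present, with a summed output of 5469 and 6048 CPM in WT and 5900 and 5521 CPM in cKO. Of these DESeq2 called Lck increased and Cd8a and Rag1 decreased. WT replicate 1 stood apart from the other 3 libraries: it held 172 CPM of Xist, the RNA of the inactive X chromosome of females, against at most 2.36 CPM, and the 15 proliferation genes listed summed to 444 CPM in it against 687 to 809 CPM. By Xist only WT replicate 1 looked female, which goes against the sex matching that the methods state. Sex was thus not balanced between WT and cKO, and its effect on the members was not tested. The estimates of the members are therefore also given without WT replicate 1.

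In build GRCm38 the cluster covered 123618 bp of chromosome 6, from 48647234 to 48770851, in the order Gimap8, Gimap9, Gimap4, Gimap6, Gimap7, Gimap1, Gimap5 and Gimap3. Gimap6 and Gimap3 lie on the minus strand and the others on the plus strand. The counted interval of each member was its whole transcribed span, from 2570 bp in Gimap9 to 13642 bp in Gimap8, and between 46.2% of it (Gimap9) and 78.9% (Gimap7) was intron. No member was overlapped by another gene of the table. The antisense RNA Gimap1os (48738346 to 48741444, minus strand, GENCODE) overlaps Gimap1 by 2398 bp and is no row of the table.

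The 4 promoters below are those of the called members and of Gimap1, the member that was not lower. They are the 250 bases before the annotated start, 5′ to 3′ on the gene's strand, from RefSeq on GRCm38: chr6:48770852-48771101 (minus) for Gimap3, chr6:48684328-48684577 (plus) for Gimap4, chr6:48708245-48708494 (minus) for Gimap6 and chr6:48738797-48739046 (plus) for Gimap1. Capitals mark matches, on either strand, to any of 8 motifs.
Gimap3: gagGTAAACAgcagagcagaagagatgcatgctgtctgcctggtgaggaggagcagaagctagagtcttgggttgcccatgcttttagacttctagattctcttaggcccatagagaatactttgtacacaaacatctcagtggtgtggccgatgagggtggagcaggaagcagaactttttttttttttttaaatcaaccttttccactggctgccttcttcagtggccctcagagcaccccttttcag
Gimap4: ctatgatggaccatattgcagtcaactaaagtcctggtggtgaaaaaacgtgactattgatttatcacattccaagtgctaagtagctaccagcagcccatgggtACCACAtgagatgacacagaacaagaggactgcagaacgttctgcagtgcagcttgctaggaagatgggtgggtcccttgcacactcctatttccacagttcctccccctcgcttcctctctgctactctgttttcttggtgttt
Gimap6: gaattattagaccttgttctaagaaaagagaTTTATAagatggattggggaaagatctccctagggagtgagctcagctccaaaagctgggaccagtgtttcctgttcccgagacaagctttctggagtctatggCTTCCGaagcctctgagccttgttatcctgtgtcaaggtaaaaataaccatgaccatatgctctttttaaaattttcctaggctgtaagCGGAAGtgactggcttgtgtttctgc
Gimap1: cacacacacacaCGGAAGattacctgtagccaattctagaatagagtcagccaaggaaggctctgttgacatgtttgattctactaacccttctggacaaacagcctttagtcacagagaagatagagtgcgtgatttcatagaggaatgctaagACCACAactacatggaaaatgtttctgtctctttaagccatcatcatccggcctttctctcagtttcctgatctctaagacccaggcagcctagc
Both strands were searched for 8 motifs, with RUNX as TGTGGT, the forkhead motif as GTAAACA, the GATA motif as AGATAA, an E-box as CAGGTG, the ETS motif as CGGAAG, the TCF motif as TTCAAAG, the TATA box as TATAAA and the motif of KLF and SP factors as CCCGCC. Gimap3 held only the forkhead motif, which 3.09% of 27025 promoters hold. Gimap4 held only the RUNX motif, found in 14.2% of promoters, and it is also in Gimap7 and in Gimap1. Gimap6 held the ETS motif (13.8% of promoters) and TATAAA (13%), and Gimap1 also held the ETS motif. No motif was common to the 3 called members, and no pair of them shared one. Promoters of Gimap5 and Gimap8 held none of the 8 motifs, Gimap7 and Gimap9 held CCCGCC (32.6%), and Gimap9 held CAGGTG (17.1%). AGATAA (10.3%) and TTCAAAG (4.64%) were in no member. GC content ranged from 43.6% in Gimap6 to 61.2% in Gimap9, against a median of 52% over all promoters. A match is a string of letters and does not show that a factor binds.

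Output differed widely among the members. On the scale of level per length (CPM per kb of gene), Gimap6, whose protein binds an ATG8 protein of autophagy, was highest at 26.4 ± 1.18 in WT and 21.6 ± 1.96 in cKO (SD, n = 2). It gave between 50.5% and 52.9% of the CPM of all 8 members in every library. Gimap9 was next at 9.63 ± 0.156 and 8.35 ± 0.493 CPM per kb, then Gimap4 at 6.76 ± 0.604 and 4.77 ± 0.559. These 3 were in the upper part of the range of the 11625 genes whose mean reached 1 CPM, with percentiles of 98.1, 93.5 and 88.2. Gimap1 followed at 3.79 ± 0.420 CPM per kb in WT and 4.06 ± 0.0356 in cKO, Gimap3 at 3.91 ± 0.680 and 2.35 ± 0.283, and Gimap8 at 2.53 ± 0.286 and 1.85 ± 0.261. Gimap5 and Gimap7 were below the median of those genes, 1.46 CPM per kb. Gimap5 was at 1.22 ± 0.0967 in WT and 1.11 ± 0.0952 in cKO, and Gimap7 at 0.925 ± 0.434 and 0.604 ± 0.0446. The neighbours Gimap6 and Gimap9, Gimap9 and Gimap4, Gimap4 and Gimap1, and Gimap8 and Gimap5 did not overlap in any library. Gimap1 and Gimap3, Gimap3 and Gimap8, and Gimap5 and Gimap7 overlapped over the 4 libraries, and WT replicate 1 was the library in which Gimap3 lay above Gimap1.

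**Figure D1:**
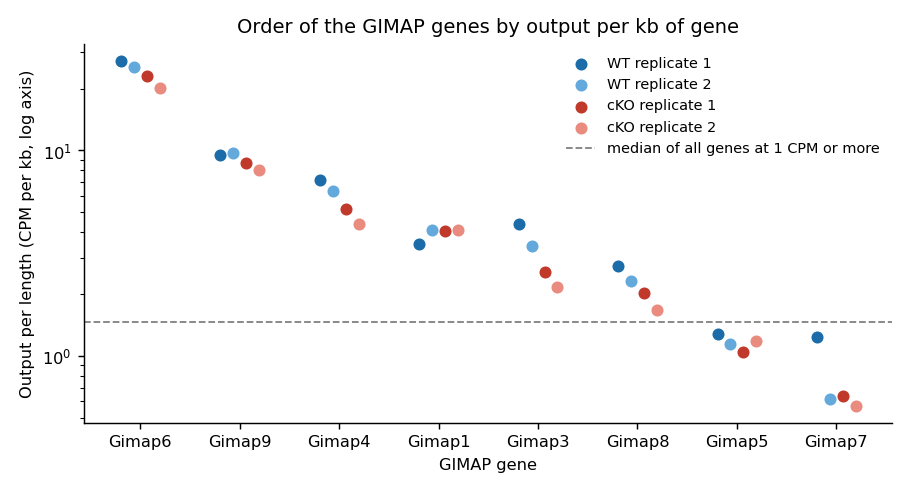
Output per length of each GIMAP gene (vertical log axis, CPM per kb of gene) in the 4 libraries (colours), ordered by the mean of all libraries, with the median of the 11625 genes at a mean of 1 CPM or more as a dashed line. Gimap6 is 2.67 times the next member, and Gimap5 and Gimap7 lie below the dashed line.

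Gimap3 showed the largest called difference. It encodes a membrane-bound GTPase close to GIMAP5 that is known to affect the inheritance of mitochondrial DNA in mice. Its output was 28.0 CPM in WT replicate 1, 21.9 CPM in WT replicate 2, 16.3 CPM in cKO replicate 1 and 13.8 CPM in cKO replicate 2, from between 547 and 1195 fragments. Both cKO libraries lay below both WT libraries, and within each genotype replicate 1 was the higher. The means were 25 ± 4.34 CPM in WT and 15.0 ± 1.81 CPM in cKO (SD, n = 2), and DESeq2 estimated a log2 fold change of -0.73 (SE 0.174, adjusted p = 0.00170). Without WT replicate 1 the estimate was -0.55 and the adjusted p-value 0.429.

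Gimap3 and Gimap5 are the closest relatives of the family. Their proteins, translated from the RefSeq coding sequences, were identical at 82.7% of 301 aligned residues, against a median of 38.2% over the 28 pairs of members and 53.6% for the next pair, Gimap7 and Gimap9. The genes shared 190 stretches of 50 bases, 3.0% of those in Gimap3 and 2.39% of those in Gimap5, and no other pair of members shared any. A fragment from such a stretch cannot be placed with certainty, so a small part of both counts is uncertain. Gimap5, which is required for survival of naive T cells and acts at lysosomes, was at 10.3 and 9.18 CPM in WT and at 8.38 and 9.46 CPM in cKO. The groups overlapped, and DESeq2 gave a log2 fold change of -0.13 (SE 0.215, 95% interval -0.55 to 0.29, adjusted p = 0.877), or -0.05 without WT replicate 1. The ratio of Gimap3 to Gimap5 counts within a library was 2.73 and 2.38 in WT and 1.95 and 1.45 in cKO.

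Gimap4 encodes a GTPase that is known to speed the death of T cells. Its output was 53.8 and 47.4 CPM in the WT libraries and 38.7 and 32.8 CPM in those of cKO, on 1303 to 2309 fragments. The groups did not overlap. The decrease, from 50.6 ± 4.52 to 35.7 ± 4.19 CPM (SD, n = 2), had a log2 size of -0.51 (SE 0.128, DESeq2 adjusted p = 0.00406). Without WT replicate 1 it was -0.42, with an adjusted p-value of 0.381.

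Gimap6 takes part in autophagy of T cells. It was measured at 181 and 170 CPM in WT and at 153 and 135 CPM in cKO, from between 5358 and 8284 fragments. Here too the cKO libraries both lay below the WT libraries. The mean decreased from 176 ± 7.84 to 144 ± 13.1 CPM (SD, n = 2), which is -0.29 on the log2 scale (SE 0.0902, DESeq2 adjusted p = 0.0349). It was -0.25 without WT replicate 1, with an adjusted p-value of 0.534.

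Gimap8 and Gimap9, at the other end of the cluster, were not called although their groups did not overlap. Gimap8, the largest member, with 688 residues and more than 1 GTPase domain, was at 37.2 and 31.7 CPM in WT and at 27.7 and 22.7 CPM in cKO. Its log2 fold change of -0.45 (SE 0.148) was close in size to that of Gimap4, and its DESeq2 adjusted p-value, 0.0501, missed the threshold of 0.05. Without WT replicate 1 the estimate was -0.34 (adjusted p = 0.840). Gimap9 was at 24.5 and 25 CPM in WT and at 22.4 and 20.6 CPM in cKO, which is -0.21 on the log2 scale (SE 0.144, 95% interval -0.49 to 0.07, DESeq2 adjusted p = 0.570), or -0.23 without WT replicate 1 (adjusted p = 0.998).

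Gimap7 and Gimap1 had overlapping groups. Gimap7, whose protein is known to stimulate the GTPase activity of a related GIMAP protein by pairing with it, was at 7.41 CPM in WT replicate 1, and the other WT library, at 3.72 CPM, lay between the cKO libraries at 3.83 and 3.45 CPM. Its log2 fold change of -0.61 (SE 0.355, adjusted p = 0.458 in DESeq2) rested on WT replicate 1. It was -0.04 without that library and -1.02 without WT replicate 2. Gimap1, which mature B and T cells need to persist, was at 16.6 and 19.4 CPM in WT and at 19.2 and 19.4 CPM in cKO. It was the one member with an estimate above 0, 0.09 (SE 0.163, 95% interval -0.22 to 0.41, DESeq2 adjusted p-value 0.879), and without WT replicate 1 that estimate was -0.02 (95% interval -0.46 to 0.41).

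**Figure D2:**
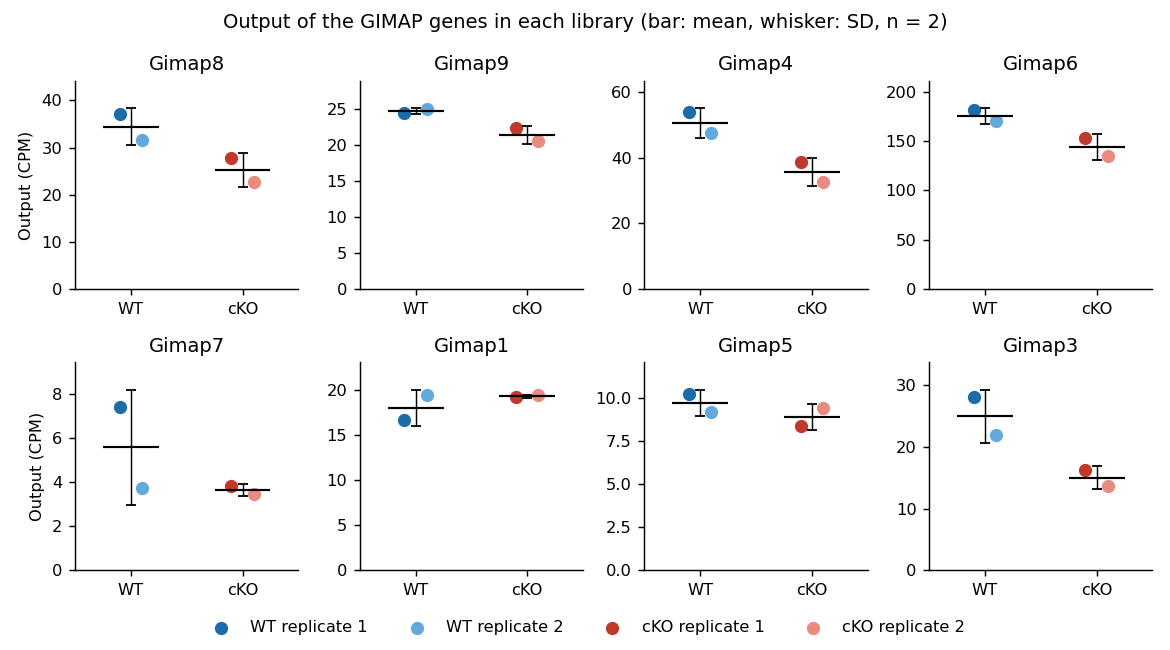
Output (vertical axis, CPM) of the 8 GIMAP genes in 2 WT and 2 cKO libraries, 1 panel per gene in chromosome order, with points for libraries, bars for the mean and whiskers for SD. Gimap8, Gimap9, Gimap4, Gimap6 and Gimap3 have both cKO points below both WT points, and the single high point of Gimap7 is WT replicate 1.

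Of the 8 members, 3 were called decreased and none increased at the 3 criteria (DESeq2 adjusted p-value under 0.05, fold change of at least 1.2, mean CPM of at least 1), while 1.57% of the 11625 genes were called decreased and 2.14% increased. The members are neighbours and relatives, so they are not 8 independent observations. The estimate was below 0 in 7 of 8, with a median of -0.37, and among all tested genes 49.8% were below 0 and the median was 0.00. Without WT replicate 1 all 8 estimates were below 0, with a smaller median of -0.24, against 51.5% of tested genes below 0. Both cKO libraries lay below both WT libraries in 5 of 8 members, against 24% of tested genes, and both lay below WT replicate 2 alone in 6 of 8, against 35.9%. In 6 members WT replicate 1 was the highest library, and in 6 cKO replicate 2 was the lowest. Without adjustment, 4 members had a p-value under 0.05 with DESeq2 (6.31% of all tested genes, lower in cKO), with edgeR (7.32%) and with limma voom (7.27%), and for 3 with DESeq2 without WT replicate 1 (3.27%) and 2 without cKO replicate 2 (3.01%). After adjustment edgeR and limma voom called no member, with lowest adjusted p-values of 0.122 and 0.123. Over all genes edgeR called 0.086% decreased and 0.413% increased, and limma voom called 0.0946% decreased. With 3 libraries in DESeq2, no member was called without WT replicate 1 or without cKO replicate 2, when 0.611% and 0.241% of genes were called decreased, and Gimap3 and Gimap4 were called without WT replicate 2 (1.08%) or without cKO replicate 1 (0.413%). The same pair was called with the replicate number as a block, where 0.619% of genes were called decreased. In bulk libraries a smaller share of cells that transcribe these genes and less transcription per cell cannot be told apart.

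**Figure D3:**
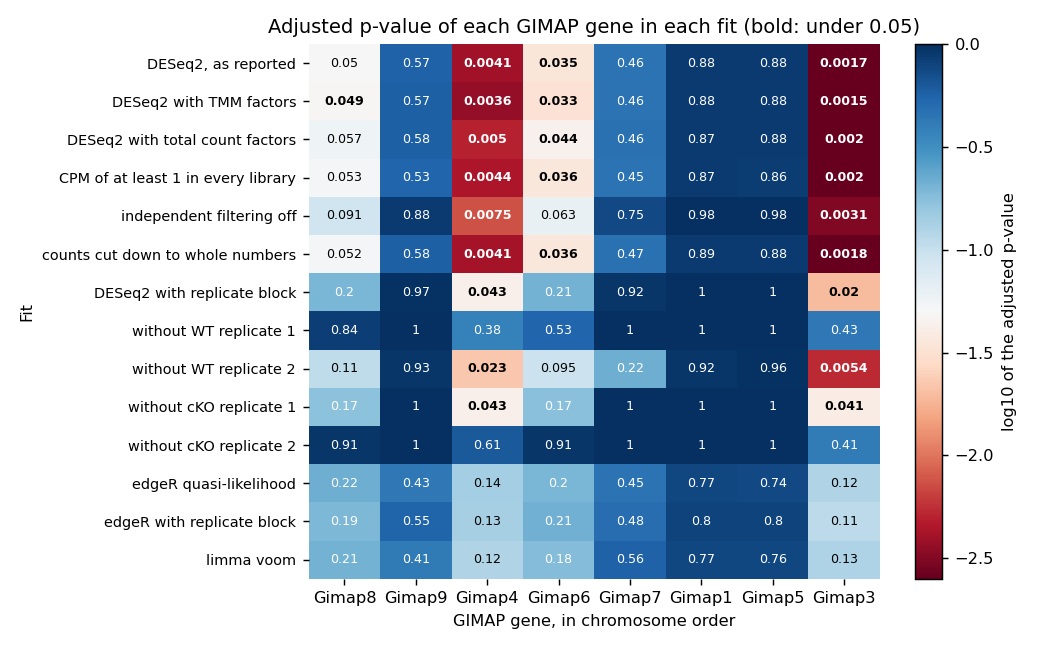
Adjusted p-value (number and colour, log10 colour scale) of each GIMAP gene (columns, chromosome order) in each fit (rows), with values under 0.05 in bold. Gimap3 and Gimap4 are under 0.05 in the same fits, which exclude edgeR, limma voom and DESeq2 without WT replicate 1 or cKO replicate 2.

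Within a library, ratios between members do not depend on its size. Gimap3 counts were 1.69 and 1.13 times those of Gimap1 in WT and 0.852 and 0.709 times in cKO. For Gimap4 over Gimap1 the ratios were 3.24 and 2.44 in WT and 2.02 and 1.69 in cKO, and for Gimap6 over Gimap1 they were 10.9 and 8.77 in WT and 8.0 and 6.95 in cKO. Gimap3 also moved against Gimap6, from 0.155 and 0.129 to 0.106 and 0.102. In each of these ratios both cKO libraries were below both WT libraries, and WT replicate 1 was the highest library. The called members and Gimap1, the member with an estimate above 0, were picked on these same values, so the ratios are no separate support. Gimap1 was itself lowest in WT replicate 1, at 16.6 CPM. The difference between members was not tested.

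Summed over the 8 members, output was 359 and 329 CPM in WT and 290 and 257 CPM in cKO, with no overlap. The means were 344 ± 21.6 and 273 ± 23.2 CPM (SD, n = 2), so that WT was 1.26-fold higher. On the log2 scale of size-factor-normalised counts the difference was -0.33, and -0.27 without WT replicate 1. Without Gimap6 it was 1.3-fold higher, or 1.23-fold when WT replicate 1 was left out as well. The 5 members that were not called summed to 96.0 and 89.1 CPM in WT and to 81.4 and 75.5 CPM in cKO, 1.18-fold higher in WT and 1.13-fold without WT replicate 1.

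The genes beside the cluster were read to see where along the chromosome values were lower. Of 20 genes within 250 kb of the cluster, 7 averaged 1 CPM or more, and 7 were at 0 in all libraries. None of the 7 expressed neighbours was called by DESeq2, and 1 of them, Krba1, had an unadjusted p-value under 0.05. Their log2 fold changes ran from -0.41 in Repin1 to 0.51 in Zfp467, with a median of -0.21, and 6 of 7 were below 0. The nearest on the Gimap8 side, Zfp775, is 24006 bp away and was at 6.55 and 6.10 CPM in WT and at 5.02 and 4.97 CPM in cKO, a log2 fold change of -0.34. The groups did not overlap in Zfp775, Krba1 and Repin1, all lower in cKO, nor in Zfp467, which was higher. The nearest on the Gimap3 side, Tmem176b, 62959 bp away, was at 1.5 and 2.55 CPM in WT and at 1.74 and 1.36 CPM in cKO. Whether the neighbours differ from the members was not tested.

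**Figure D4:**
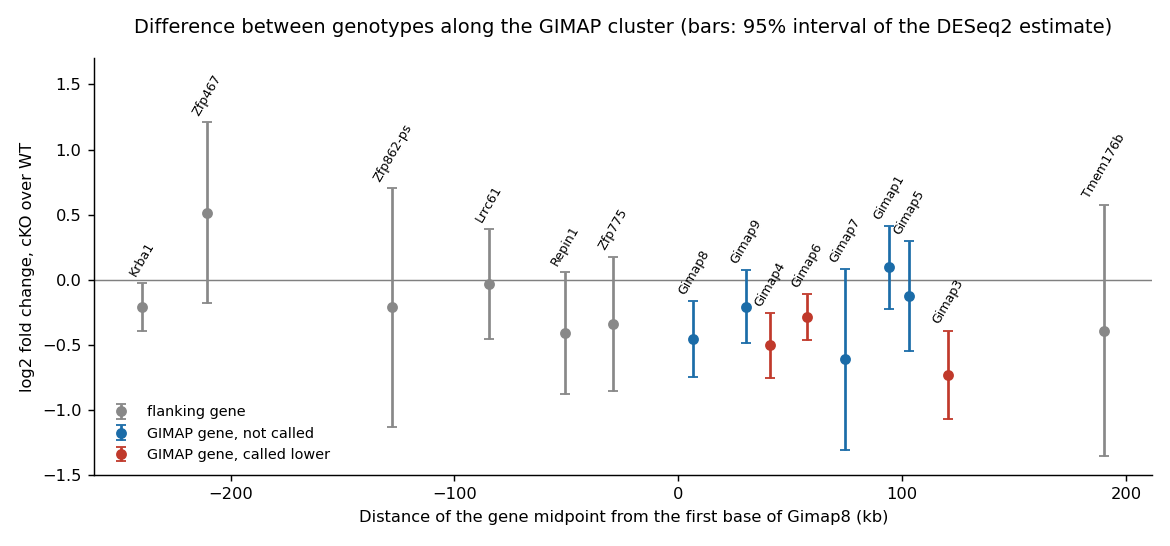
Log2 fold change of cKO over WT (vertical axis, with the 95% interval of the DESeq2 estimate) of the GIMAP genes and of the expressed genes within 250 kb, against the distance of the gene midpoint from the start of Gimap8 (horizontal axis, kb). The called members Gimap4, Gimap6 and Gimap3 are spread along the cluster, with Gimap1 between Gimap6 and Gimap3 at 0.09.

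GIMAP proteins are known to work with BCL2 family proteins, with ATG8 proteins of autophagy and, in the case of GIMAP5, with the kinase GSK3B. Genes of these proteins were read together with the autophagy genes Atg5, Atg7 and Sqstm1, which belong to none of these classes. Of these 16 genes all reached 1 CPM on average, and DESeq2 called 1 increased and 1 decreased. Bcl2, which blocks apoptosis, rose from 102 and 102 CPM in WT to 176 and 141 CPM in cKO (log2 fold change 0.64, SE 0.105, DESeq2 adjusted p = 4.01e-07). Sqstm1, the autophagy receptor p62, fell from 129 and 115 CPM to 93.8 and 92.0 CPM (log2 fold change -0.40, SE 0.0926, DESeq2 adjusted p = 0.00129). Both had groups that did not overlap. The median of the 16 was -0.07, with 12 below 0, and it was -0.14 without WT replicate 1 and -0.03 when WT replicate 2 was left out. Bcl2l1, a survival gene of DP thymocytes that had the highest CPM of the list, was at 1455 and 1484 CPM in WT and at 1336 and 1332 CPM in cKO (log2 fold change -0.14, DESeq2 adjusted p-value 0.276), and Gsk3b had a log2 fold change of 0.12 (DESeq2 adjusted p-value 0.457). Map1lc3b, which encodes an ATG8 protein, was also lower by its estimate (log2 fold change -0.27, DESeq2 adjusted p = 0.0501). edgeR called none of the 16. Bcl2 was called by DESeq2 whichever library was left out, and Sqstm1 only when WT replicate 2 was the library left out.

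Since GIMAP genes rise with maturation, 17 other genes linked to maturing thymocytes were read beside them. DESeq2 called 1 increased and 3 decreased, and 11 of 17 were below 0 with a median of -0.03. The increased gene was Il7r, the interleukin receptor needed by naive T cells, from 62.0 and 61.7 to 83.1 and 75.8 CPM (0.36, adjusted p-value 0.0125). The decreased genes were Ccr7, a chemokine receptor of single positive cells, with 255 and 243 CPM in WT and 213 and 181 CPM in cKO (-0.34, adjusted p-value 0.00714), Slfn2, a gene of T cell quiescence (-0.40), and Tcf7, a transcription factor used from the earliest T cell stages on (-0.33). The CPM of the 17 genes summed to 10073 and 9727 in WT and to 9544 and 8369 in cKO, and edgeR called none of them. Of the 4 DESeq2 calls, Slfn2 remained without WT replicate 1, Ccr7 and Slfn2 without WT replicate 2, Ccr7 and Tcf7 without cKO replicate 1, and none without cKO replicate 2. Without WT replicate 2 Zfp36l2 was newly called, as higher in cKO. Il7r was called in none of these 4 fits, and the median of the list was -0.15 without cKO replicate 1. Foxp1, with the highest CPM of them, had a log2 fold change of -0.03. Of the 15 proliferation genes, none was called by DESeq2 or edgeR, and 14 had estimates above 0 with a median of 0.35, which dropped to 0.03 without WT replicate 1 and reached 0.76 with WT replicate 2 left out, where 9 were called.

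**Figure D5:**
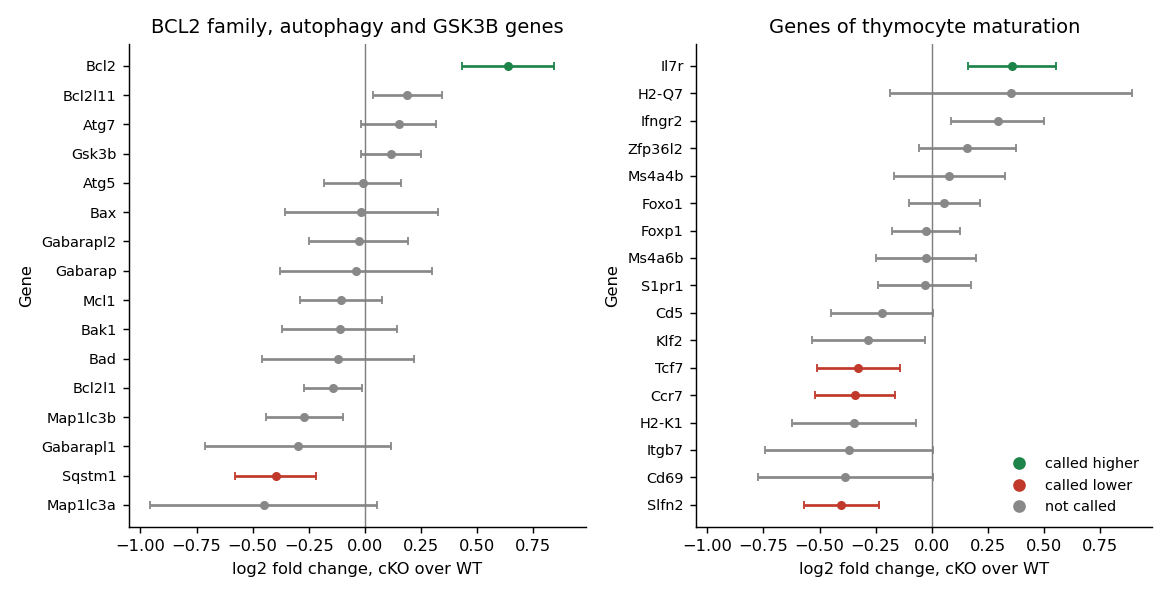
Log2 fold change of cKO over WT (horizontal axis, with the 95% interval of the DESeq2 estimate) of 16 genes of the BCL2 family, autophagy and GSK3B (left) and of 17 genes of thymocyte maturation (right), coloured by call. Bcl2 and Il7r were called higher, and Sqstm1, Slfn2, Ccr7 and Tcf7 lower.

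Markers of other cells that the samples could hold were read in the same libraries. B cells transcribe GIMAP genes too, and 7 of their markers summed to 14.4 and 13.5 CPM in WT and to 14.5 and 12.4 CPM in cKO, with 4 of 7 below 1 CPM and Ms4a1, which encodes CD20, at most at 0.185 CPM. The highest of them was Ebf1, at 7.78 and 7.11 CPM in WT and at 8.21 and 8.14 CPM in cKO. Of the 3 that averaged 1 CPM or more, 2 had estimates below 0 and none was called. Their median was -0.38, or -0.13 without WT replicate 1 and 0.08 without WT replicate 2. Endothelial cells transcribe GIMAP genes as well. Their markers other than Pecam1 and Eng, which held nearly all of the list's CPM and were set aside after their values were seen, summed to between 0.934 and 1.24 CPM, and Cdh5 was at most at 0.164 CPM. Markers of red cells reached at most 0.855 CPM in sum. Of 7 thymic epithelium markers in the table, Psmb11 was at 0 in every library, and the sum, mostly Ccl25, ran from 31.6 to 41.1 CPM.

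In 3 lists of cell type markers both cKO sums lay below both WT sums, as they did for the members. The 8 myeloid markers summed to 22.5 and 21.9 CPM in WT and to 18.8 and 18.6 CPM in cKO, with 5 of 8 below 1 CPM, and to 6.77 and 5.85 against 4.36 and 5.26 CPM without Cst3. Spi1, the myeloid and B cell transcription factor PU.1, was at 1.10 and 1.05 CPM in WT and at 0.260 and 0.402 CPM in cKO. Lyz2, Csf1r and Cst3 also had both cKO libraries below both WT libraries, with Lyz2 at 1.34 and 1.21 CPM against 0.312 and 0.679 CPM. Itgam, an integrin of myeloid cells, went the other way, with 1.06 and 1.07 CPM in WT and 1.51 and 1.53 CPM in cKO. In Cd14, Adgre1 and Fcer1g the groups overlapped. Of the 3 myeloid markers that averaged 1 CPM or more, 1 had an estimate below 0 and none was called. Spi1, Lyz2 and Csf1r averaged less and are not among these. The 8 markers of double negative thymocytes, the stage before DP, summed to 42.2 and 42.5 CPM in WT and to 37.4 and 42.0 CPM in cKO, and none was called. The 8 markers of NK and innate-like T cells summed to 25.3 and 16.8 CPM in WT and to 12.9 and 12.2 CPM in cKO. The marker with the highest CPM among them was Zbtb16, the transcription factor of innate-like T cells, at 20.5 and 12.7 CPM in WT and at 7.55 and 5.23 CPM in cKO. DESeq2 called it decreased (log2 fold change -1.38, adjusted p = 1.21e-05), and edgeR did not (adjusted p = 0.103). Without Zbtb16 the others summed to 4.86 and 4.09 CPM in WT and to 5.33 and 6.99 CPM in cKO. A set of 7 markers of mature single positive cells, which overlaps the maturation list, summed to 505 and 496 CPM in WT and to 496 and 430 CPM in cKO, with Il7r and Runx3 called increased and Ccr7 decreased. The part of these cells in the lower output of the GIMAP genes was not tested.

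The genes whose values over the 4 libraries were most like the summed GIMAP output were found by the root mean square distance of centred log2(CPM + 0.5), among 11617 genes that are no members. The nearest were H2-T9, a gene of non-classical MHC class I, at 0.00809, Grap, an adaptor of antigen receptor signalling, at 0.0105, Stpg4 at 0.0137, Tpra1 at 0.0195 and Birc3, an inhibitor of apoptosis, at 0.0234, and 72 genes were within 0.05. With 4 points such likeness is a description only. Gimap6, which makes up most of the sum, was itself at a distance of 0.0258, and Gimap7 was farthest at 0.286.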

How the data were processed

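TTchem-seq of DP thymocytes was analysed in 2 WT and 2 cKO libraries, grouped by the genotype in the sample title. The values the authors deposited were expected counts of fragments per gene, not normalized. Of all values 8.61% were fractional, of the 32 member values 1. The deposited lengths of the 8 members equalled their whole spans, introns included. The submitters' processing notes name fastp 0.13.1, STAR 2.7.9a and featureCounts 1.6.1, and the study's methods name STAR gene counts on GRCm38, so which tool counted is not settled. Strand use was checked on 1702 genes nested in a gene of the other strand, with a median density of 0.340% of the host. Yeast spike-in RNA was added, and the table held 0 yeast rows.

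Counts were rounded to whole numbers, and CPM were computed here from deposited totals. The DESeq2 Wald test (1.42.0, default size factors, unshrunken log2 fold changes) was fitted on the whole table with Benjamini-Hochberg adjustment over it. Calls required an adjusted p-value below 0.05, a change of 1.2-fold or more and a mean of 1 CPM or more. edgeR 4.0.16 (quasi-likelihood), limma 3.58.1 (voom), other size factors, filters and rounding, the replicate number as a block and each library left out were alternatives. The main DESeq2 fit alone was run on simulated counts with known changes. It recovered 22.4% of 1.3-fold, 52.2% of 1.5-fold and 71.2% of 2-fold changes, and called 0.149% of unchanged genes. A member that was not called may thus still differ by such a size. All 8 members were named, beside listed partner, maturation and marker genes (called ones and up to 4 others a list), genes within 250 kb and the 5 nearest patterns. A few listed genes are not reported here and were left out of their lists. Members and lists were chosen with earlier results of these data known, so their values are no independent support. Replicate libraries differed by more than counting noise (chi-square per degree of freedom 40.7 in WT and 30.7 in cKO). Fragments are not independent molecules, since no molecular identifiers were used. Sequences and proteins came from RefSeq on GRCm38, whose spans matched those of all 8 members. R 4.3.3, Python 3.11.15, pandas 2.3.3, numpy 2.4.6, Biopython 1.88 and matplotlib 3.10.9 were used.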

Additional observations from a re-analysis of the deposited data

How the results depend on the processing

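The number of members called was 3 with DESeq2, 4 with TMM factors, which added Gimap8 (-0.45, adjusted p-value 0.0489), 1 at a fold change of at least 1.5, 0 with edgeR, with edgeR and the replicate block and with limma voom, and 0 to 2 with 1 library left out. The lone library of a group was then assumed to vary like the other group. For Gimap3 the log2 fold change was -0.73 with edgeR, -0.73 with edgeR and the replicate block and -0.72 with limma voom (adjusted p-values 0.122, 0.110 and 0.127), and -0.90 to -0.55 with 1 library left out. For Gimap4 it was -0.51 in each of these 3 fits (0.139, 0.134 and 0.123), -0.51 also at a fold of 1.5, which it does not reach, and -0.62 to -0.39 with 1 library left out. For Gimap6 it was -0.29 with independent filtering off (0.0632), with DESeq2 and the replicate block (0.206), edgeR (0.197), edgeR and the block (0.210), limma voom (0.182) and at a fold of 1.5, and -0.38 to -0.20 with 1 library left out. Gimap1 changed sign without WT replicate 1 (-0.0216), with a range of -0.0216 to 0.22. Over all values of members under these alternatives, 105 kept direction and side of the threshold, 21 lost the call, 1 gained it and 1 changed sign. Only the 3 members called at first could lose a call. Of 16 alternatives Gimap3 was called in 11, Gimap4 in 10 and Gimap6 in 6. The summed output kept its direction throughout. Of the 8 places in the order by level per kb, 4 were kept by CPM without length and 6 by WT replicate 1 alone. Of the listed genes edgeR called 0 in each list.

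The replicate numbers were not taken to pair the libraries, since same-numbered libraries did not deviate together (correlation 0.00447 over 11625 genes), although over the 8 members alone the correlation was 0.277. With the replicate block, DESeq2 called 2 members, Gimap3 (adjusted p-value 0.0195) and Gimap4 (0.0427), and over all genes 121 increased and 72 decreased in place of 249 and 182. edgeR with the block called 19 and 9 in place of 48 and 10. The cause of the changes between fits was not tested. Gimap9 and Gimap5 had estimates below the 1.2-fold that a call requires.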
